A study of Mus musculus with 18 samples.

Results

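The 9 genes described here are *Ppara*, which encodes the nuclear receptor PPAR-alpha, and 8 liver genes that are known targets of this receptor in fasting: *Cyp4a10*, *Cyp4a14*, *Cyp4a31*, *Fgf21*, *Angptl4*, *Pdk4*, *Vnn1* and *Acot1*. They were chosen by name among the 22524 genes counted in each liver, with earlier results of these data known. All 9 had enough reads to be compared. The animals were C57BL/6 females of 15 months, 10 heterozygous for *Rps2*-A226Y (A226Y) and 8 wild type for *Rps2* (WT), and mice of either group carried CMV-Cre, a Cre recombinase driven in all tissues by the CMV promoter. A226Y is a ribosomal ambiguity mutation of the small-subunit protein RPS2 that lowers the accuracy of translation. As the study describes the model, excision of the stop cassette was partial, so A226Y livers are mosaics of cells with the mutant allele and cells in which the targeted allele is silent. Whether the animals had eaten before the livers were taken is not given in the sources used here.

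PPAR-alpha is a fatty acid sensor of the hepatocyte nucleus. It binds DNA as a dimer with the retinoid X receptor, and in fasting, when adipose tissue releases fatty acids, it raises genes for fatty acid oxidation, ketone body formation and hormones that act on other tissues. Most of its effect is set by ligands and coregulators, so the mRNA of the receptor and that of its targets need not move together. A whole-liver measurement cannot tell more mRNA per hepatocyte from more hepatocytes.

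Each mouse gave 1 library with between 23850565 and 62126131 counted reads. Levels are given as CPM, reads of the gene relative to all counted reads, after TMM scaling, which corrects for differences in library composition. *Rps2* itself was at 68.6 ± 13.3 CPM (SD, n = 10) among A226Y mice and 114.1 ± 13.03 CPM (SD, n = 8) among WT mice, a log2 fold change of -0.73 (SE 0.11, edgeR adjusted p = 0.000772). The livers A226Y 29 and WT 33 stood apart from the rest, with a median correlation with the other mice of 0.964 and 0.968, the lowest of all 18 mice. Results are therefore also given without this pair, an alternative chosen after the data were seen. The summed level of 7 hepatocyte genes ranged from 68664 to 143973 CPM in A226Y, lowest in A226Y 29, and from 92176 to 177572 CPM in WT, highest in WT 33.

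The 3 *Cyp4a* genes lie side by side on chromosome 4 and encode fatty acid omega-hydroxylases that arose by duplication. Their likeness bears on how reads of 50 bases can be assigned to them, so a stretch of 90 coding bases is shown for each and for the neighbouring paralog *Cyp4a32*, from GENCODE M21 transcripts on GRCm38. The stretch covers coding bases 274 to 363 (268 to 357 in *Cyp4a14*), and capitals mark bases that differ from *Cyp4a10*.
Cyp4a10: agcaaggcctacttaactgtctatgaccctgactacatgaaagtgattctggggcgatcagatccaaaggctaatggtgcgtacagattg
Cyp4a31: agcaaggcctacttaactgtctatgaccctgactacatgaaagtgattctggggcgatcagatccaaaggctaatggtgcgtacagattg
Cyp4a32: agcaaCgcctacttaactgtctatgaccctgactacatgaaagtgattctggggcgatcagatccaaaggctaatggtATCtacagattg
Cyp4a14: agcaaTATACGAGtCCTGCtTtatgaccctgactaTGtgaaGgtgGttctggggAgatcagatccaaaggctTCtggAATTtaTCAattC

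The stretch was chosen as the part of *Cyp4a10* with the most 50-base windows also found in *Cyp4a31*. That *Cyp4a31* did not differ from *Cyp4a10* in it follows from this choice. *Cyp4a32* differed from *Cyp4a10* at 4 bases of the stretch and *Cyp4a14* at 29. Over the whole coding sequence *Cyp4a10* was 96.6% identical to *Cyp4a31*, 97.2% identical to *Cyp4a32* and 75.4% identical to *Cyp4a14*. Of all 50-base windows of the transcripts, 29.8% of those of *Cyp4a10* and 20.6% of those of *Cyp4a31* also occurred in another listed gene, against none of *Cyp4a14*. For *Acot1* the share was 19.0%, mostly with its neighbour *Acot2*, for *Pdk4* it was 1.37%, and *Ppara*, *Fgf21*, *Angptl4* and *Vnn1* shared none. Values of *Cyp4a10*, *Cyp4a31* and *Acot1* are therefore uncertain to the extent that reads from a paralog were counted with them. For *Cyp4a14* no exact match to a listed gene was found, but matches with mismatches or to unlisted sequence were not searched.

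The receptor gene *Ppara* (chromosome 15, GRCm38 bases 85734983 to 85802819, plus strand) was measured at the lowest, median and highest level of 75.6, 104.7 and 128.0 CPM in A226Y and at 84.9, 109.5 and 126.4 CPM in WT. The groups covered nearly the same range, and 1 A226Y mouse lay above all WT mice. The log2 fold change was 0.00 (SE 0.10, 95% interval -0.21 to 0.22, edgeR adjusted p = 0.987), so a change of *Ppara* mRNA larger than this interval was not seen. Its spread between mice was among the smallest of the 9 genes, with a coefficient of variation (SD divided by the mean) of 16.1% in A226Y and 15.4% in WT.

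**Figure D1:**
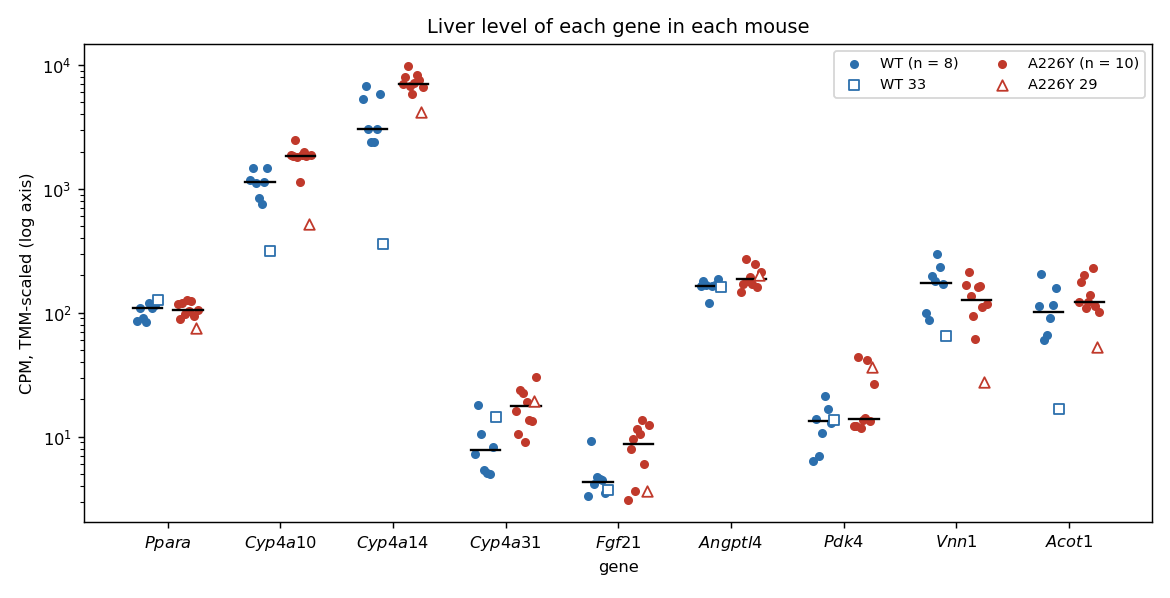
Level of each of the 9 genes in each mouse, in TMM-scaled CPM on a log axis, for 8 WT (blue) and 10 A226Y (red) livers. Bars mark group medians and open symbols the livers A226Y 29 and WT 33. For Cyp4a14 all 10 A226Y mice lie above 5 of the 8 WT mice, whereas the groups of Ppara cover the same range.

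*Cyp4a14* (chromosome 4, 115486200 to 115496142, minus strand) was by far the most abundant of the 9 genes. Its lowest, median and highest levels were 4197, 7045 and 9842 CPM in A226Y and 358, 3032 and 6770 CPM in WT. Of the 10 A226Y mice 6 were above every WT mouse, and 5 of the 8 WT mice were below every A226Y mouse. WT livers differed among themselves by 18.9-fold in this gene and A226Y livers by 2.34-fold, but the WT spread rested on WT 33, without which it was 2.86-fold. The log2 fold change was 0.97 (SE 0.34, 95% interval 0.26 to 1.67), with an edgeR adjusted p of 0.0585 over all genes, and the two-sided exact permutation test of the mean log2 CPM gave p = 0.00103. Without A226Y 29 and WT 33 the log2 fold change was 0.86 with an edgeR adjusted p of 0.00974.

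*Cyp4a10* (chromosome 4, 115518264 to 115533649, plus strand) was at 517, 1855 and 2459 CPM in A226Y (lowest, median, highest) and at 316, 1126 and 1480 CPM in WT. The levels of 8 A226Y mice exceeded every WT level, and the other two, A226Y 15 and A226Y 29, lay within the WT range. The log2 fold change of 0.73 (SE 0.26) did not pass in the fit with all mice (edgeR adjusted p = 0.0655, exact permutation p = 0.0284). In the fit without A226Y 29 and WT 33, which were the lowest of their groups, the value was 0.70 with an edgeR adjusted p of 0.00460.

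*Cyp4a31* (chromosome 4, 115563649 to 115579015, plus strand) was far less abundant, at 9.01, 17.7 and 30.6 CPM in A226Y and 5.03, 7.77 and 18.2 CPM in WT. 5 A226Y mice were above all WT mice and 5 WT mice were below all A226Y mice. Its log2 fold change of 0.94 (SE 0.27, 95% interval 0.38 to 1.503) made it the gene of the 9 that passed the test over all genes, higher in A226Y with an edgeR adjusted p of 0.0256 and an exact permutation p of 0.00466. *Cyp4a10*, with which it shares windows, was at 1037 CPM in WT on average, against 9.29 CPM for *Cyp4a31*. The part of *Cyp4a10* reads in this value was not tested. With surrogate variables (covariates estimated from the counts, described below) the log2 fold change of *Cyp4a31* was 0.27 (edgeR adjusted p = 0.575). The call rested on few mice: without WT 14, WT 21 or WT 24 in turn the edgeR adjusted p was 0.0572, 0.0527 or 0.0562. The log2 fold change was 0.86, 0.85 or 0.85 in these fits. A226Y 29 and WT 33, lowest for *Cyp4a10* and *Cyp4a14*, were at 19.3 and 14.4 CPM for *Cyp4a31*, which is above the median of their group. The paralog *Cyp4a32*, which is listed at 9.45 CPM in A226Y and 7.38 CPM in WT on average, had a log2 fold change of 0.36 (SE 0.16, edgeR adjusted p = 0.149), and passed without A226Y 29 and WT 33 at 0.44 (edgeR adjusted p = 0.0251).

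The secreted factors came next. *Fgf21* (chromosome 7, 45613886 to 45615490, minus strand) encodes a hormone that the fasted liver releases. Its lowest, median and highest levels were 3.10, 8.77 and 13.5 CPM in A226Y and 3.35, 4.31 and 9.19 CPM in WT. A226Y mice were spread widely: 5 were above every WT mouse, and 3 were between 3.10 and 3.69 CPM, level with the lowest WT mice. The log2 fold change was 0.80 (SE 0.29, 95% interval 0.20 to 1.40, edgeR adjusted p = 0.0661, exact permutation p = 0.0486). When each mouse was left out in turn the exact permutation p ranged from 0.0172 (without A226Y 3) to 0.0841 (without WT 4). With surrogate variables the log2 fold change of *Fgf21* was 0.44 (edgeR adjusted p = 0.609). Between 100 and 446 reads per mouse were behind these values.

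*Angptl4* (chromosome 17, 33773750 to 33781830, minus strand) encodes an inhibitor of lipoprotein lipase. It was at 148, 189 and 271 CPM in A226Y and at 120, 165 and 189 CPM in WT (lowest, median, highest). The difference was small beside that of the hydroxylases, with 5 A226Y mice above all WT mice and a log2 fold change of 0.25 (SE 0.11, edgeR adjusted p = 0.126, exact permutation p = 0.0522). With surrogate variables the log2 fold change of *Angptl4* was 0.011 (edgeR adjusted p = 0.978).

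*Pdk4* (chromosome 6, 5483351 to 5496309, minus strand) encodes a kinase that inactivates pyruvate dehydrogenase and so spares glucose. Its medians hardly differed, at 13.9 CPM in A226Y (range 11.7 to 44.3) and 13.4 CPM in WT (range 6.33 to 21.4). A subset of A226Y mice was high: A226Y 32, 29, 22 and 7 were at 26.4, 36.5, 41.8 and 44.3 CPM, above all WT mice, and the other A226Y mice were at 14.2 CPM or less. The log2 fold change was 0.81 (SE 0.32, 95% interval 0.16 to 1.47, edgeR adjusted p = 0.0862, exact permutation p = 0.0565). The 4 A226Y mice with the highest *Pdk4* also had the highest *Angptl4* of their group, between 200.6 and 270.6 CPM.

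*Vnn1* (chromosome 10, 23894688 to 23905343, plus strand) encodes a pantetheinase, an enzyme that frees the vitamin part of coenzyme A breakdown products. Its levels were 27.6, 128 and 212 CPM in A226Y and 64.5, 175 and 297 CPM in WT, so its median was the lower in A226Y. With a log2 fold change of -0.41 (SE 0.32, 95% interval -1.07 to 0.26, edgeR adjusted p = 0.414, exact permutation p = 0.295) the difference was within the spread between mice. When each mouse was left out in turn the value ranged from -0.53 to -0.24. With surrogate variables its sign turned, at 0.25 (edgeR adjusted p = 0.693).

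*Acot1* (chromosome 12, 84009490 to 84018371, plus strand) encodes a cytosolic thioesterase that splits long-chain acyl-CoA. It was at 52.6, 122 and 231 CPM in A226Y and at 16.7, 101 and 205 CPM in WT. The ranges overlapped almost fully, and the log2 fold change was 0.41 (SE 0.33, 95% interval -0.29 to 1.11, edgeR adjusted p = 0.434, exact permutation p = 0.163). This value ranged from 0.25 to 0.63 when each mouse was left out in turn, and was 0.17 with surrogate variables (edgeR adjusted p = 0.549).

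Across the 9 genes, 1 passed the test at an adjusted p under 0.05, where 14.3% of all 13353 tested genes passed in either direction and 7.27% were called higher in A226Y. At an unadjusted p under 0.05, 6 of the 9 were higher (*Cyp4a10*, *Cyp4a14*, *Cyp4a31*, *Fgf21*, *Angptl4* and *Pdk4*) and none lower, against 14.9% of all tested genes higher. The median log2 fold change was 0.73 for the 9 genes and -0.0044 for all tested genes. These comparisons carry no test, since the 9 genes were chosen with earlier results of these data known. Some of the 9 also varied together between mice, as described below. In the fit without A226Y 29 and WT 33, 4 of the 9 were called higher (*Cyp4a10*, *Cyp4a14*, *Cyp4a31* and *Fgf21*), where 8.67% of all tested genes were. With all mice DESeq2 called 4 higher, where it called 9.34% of all tested genes higher, and limma-voom called 2 (*Cyp4a14* and *Cyp4a31*), where it called 7.14%. With 4 surrogate variables, estimated from the counts to stand for unmeasured variation, as covariates in edgeR, no gene of the 9 was called, 2 were at an unadjusted p under 0.05 (*Cyp4a10* and *Cyp4a14*, at log2 fold changes of 0.46 and 0.67), and 0.374% of all tested genes were called. The median log2 fold change of the 9 genes was then 0.27.

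**Figure D2:**
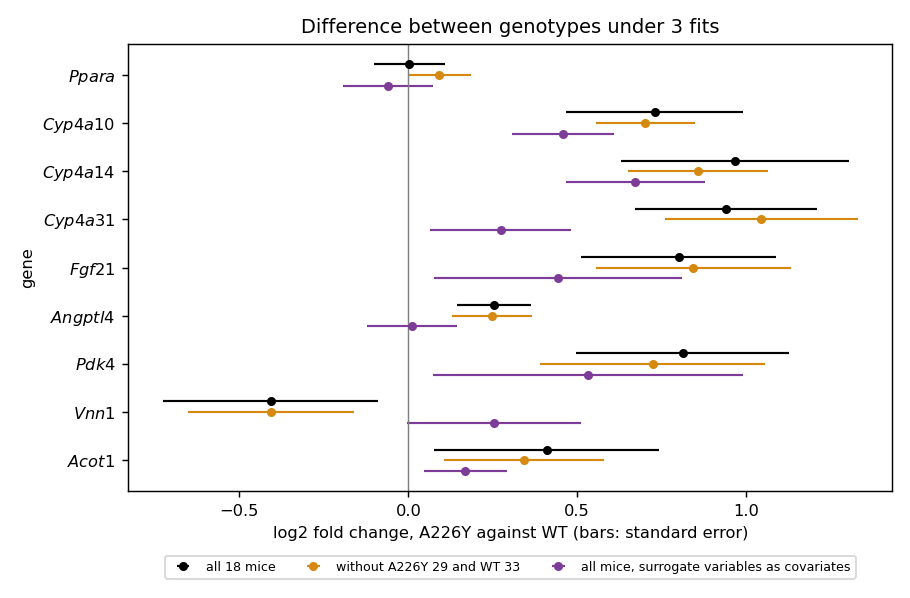
Log2 fold change of each of the 9 genes, A226Y against WT, with bars of 1 standard error, in the edgeR fit of all 18 mice (black), without A226Y 29 and WT 33 (orange) and with surrogate variables as covariates (purple). Estimates for Cyp4a10 and Cyp4a14 are 0.46 or more in each of the 3 fits, Cyp4a31 drops from 0.94 to 0.27 with surrogate variables, and Vnn1 changes sign.

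Levels between genes can be compared once divided by exon length. *Cyp4a14* came first at 1400 CPM per kb in WT and 2736 CPM per kb in A226Y, followed by *Cyp4a10* at 492 and 815 CPM per kb. *Vnn1* (68.9 and 52.0), *Angptl4* (46.4 and 55.4), *Ppara* (27.5 and 27.5) and *Acot1* (26.3 and 35.0) formed a middle range. *Fgf21* (4.96 and 8.65), *Cyp4a31* (3.70 and 7.11) and *Pdk4* (3.67 and 6.45) were lowest. Coefficients of variation in WT were 47.4% for *Vnn1*, 57.5% for *Acot1* and between 38.4% and 52.0% for the lowest group. The order of *Vnn1* and *Angptl4*, of *Ppara* and *Acot1*, and of the 3 lowest genes was not tested within mice. Levels of *Cyp4a10*, *Cyp4a31* and *Acot1* also depend on how reads shared with paralogs were assigned.

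Whether the genes varied together from mouse to mouse was asked after removing the mean of each genotype, which leaves the genotype difference out. Pearson's r of log2 CPM over 18 mice was positive for 28 of the 36 pairs, with a median of 0.22, and 4 pairs had an adjusted p under 0.05 in permutations within genotypes. 3 of these 4 joined *Cyp4a10*, *Cyp4a14* and *Acot1*, and the fourth joined *Angptl4* and *Pdk4*. *Ppara* was in none of them.

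*Cyp4a14* and *Acot1*, which lie on different chromosomes and share no 50-base window, had r = 0.91 and rho = 0.84 (permutation p = 2e-05 and 0.0001, adjusted p = 0.00036 and 0.0018). The r was 0.91 within A226Y and 0.96 within WT, and 0.79 without WT 6 and WT 33, the mice farthest from the median. *Cyp4a10* and *Cyp4a14* had r = 0.84 and rho = 0.92 (permutation p = 1e-05 for each, the smallest the permutations can give, adjusted p = 0.00036), with 0.93 within A226Y, 0.98 within WT and 0.83 without A226Y 29 and WT 33. *Cyp4a10* and *Acot1* had r = 0.86 and rho = 0.75 (permutation p = 0.00011 and 0.0011, adjusted p = 0.00132 and 0.0132), and r fell to 0.61 without A226Y 29 and WT 33. The mouse WT 33 was lowest of all 18 for each of these 3 genes, at 316 CPM for *Cyp4a10*, 358 CPM for *Cyp4a14* and 16.7 CPM for *Acot1*.

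*Angptl4* and *Pdk4* had r = 0.66 and rho = 0.63 (permutation p = 0.00549 and 0.00929, adjusted p = 0.0494 and 0.0836). The r was 0.87 within A226Y and 0.15 within WT, a difference that was not tested, and 0.65 without A226Y 7 and WT 14. *Cyp4a31* did not follow its paralogs over all mice, with r = 0.01 with *Cyp4a10*, but r was 0.67 without A226Y 29 and WT 33. The relation of *Cyp4a10* with *Vnn1* (r = 0.65, rho = 0.23, permutation p = 0.0102 and 0.375, adjusted p = 0.0737 and 0.617) rested on the same 2 mice, since r was -0.02 without them.

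**Figure D3:**
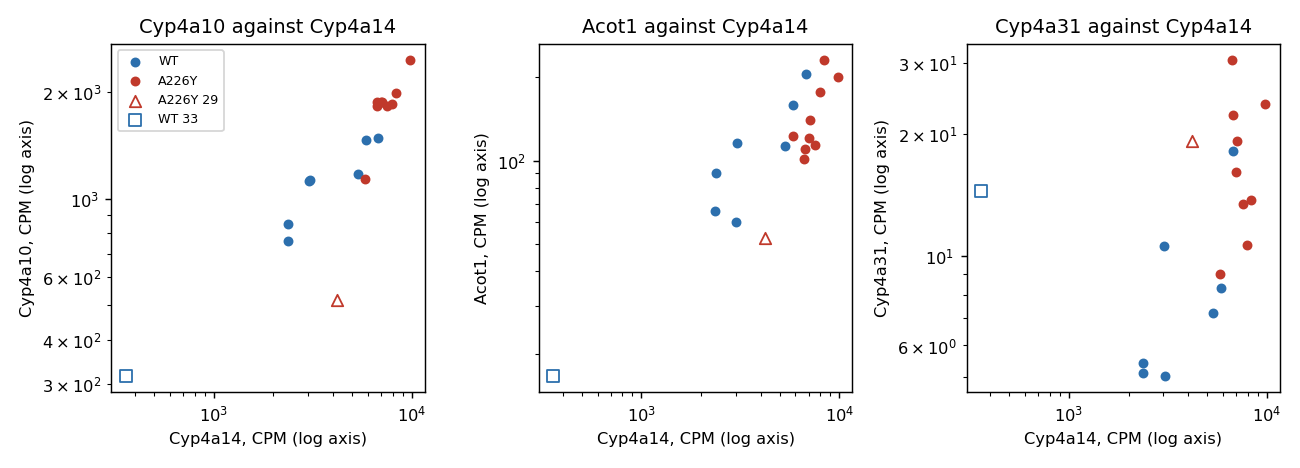
Level of Cyp4a10, Acot1 and Cyp4a31 against that of Cyp4a14, in TMM-scaled CPM on log axes, 1 point per mouse (WT blue, A226Y red, open symbols A226Y 29 and WT 33). Cyp4a10 and Acot1 climb with Cyp4a14 in either genotype, from WT 33 at 358 CPM of Cyp4a14 up to A226Y 7 at 9842 CPM, whereas WT 33 and A226Y 29 lie off the trend of Cyp4a31.

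**Figure D4:**
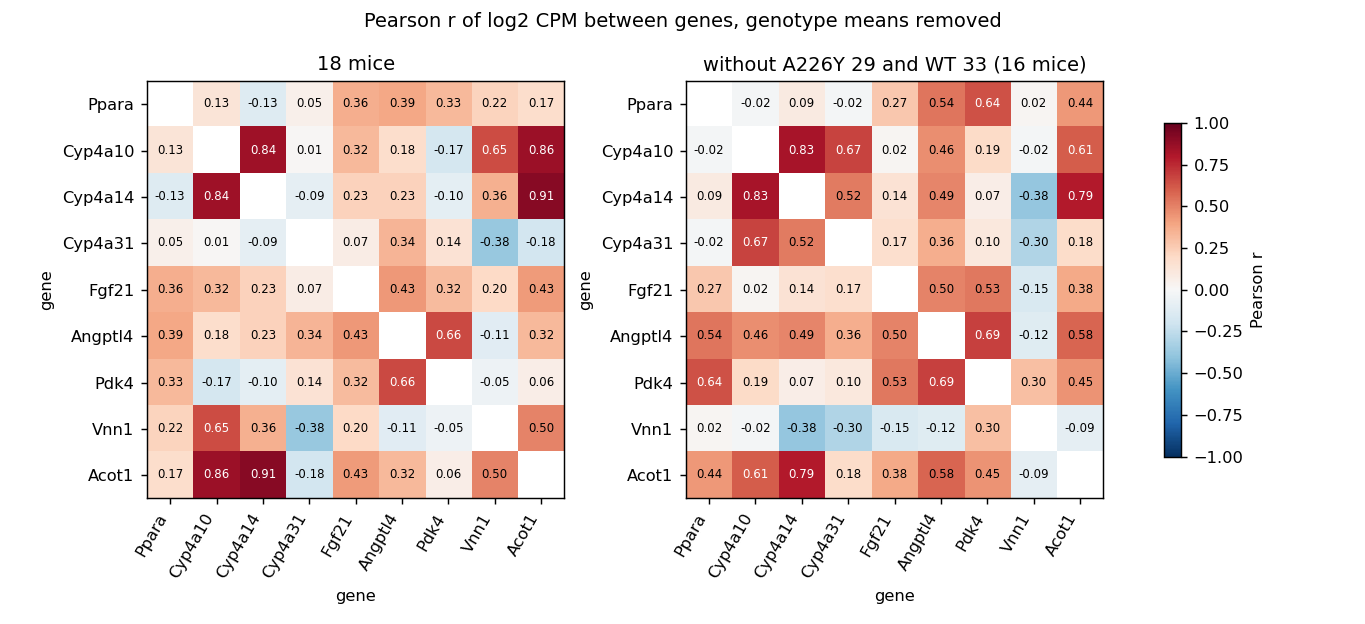
Pearson r of log2 CPM between each pair of the 9 genes after removing genotype means, over 18 mice (left) and without A226Y 29 and WT 33 (right), coloured from -1 to 1. The block of Cyp4a10, Cyp4a14 and Acot1 (0.84 to 0.91 on the left) stays positive on the right, while the r of Cyp4a10 with Vnn1 goes from 0.65 to -0.02.

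Levels of *Cyp4a14* in WT also went with the leading axis of variation over all genes. The first principal component of log2 CPM held 25.1% of the variance. WT 4, WT 6 and WT 28 lay at 5.08, -11.5 and 4.69 on it, within or close to the A226Y range of -26.5 to -0.38, and had the 3 highest WT levels of *Cyp4a14* (5328, 6770 and 5863 CPM). The other 5 WT mice lay between 21.9 and 39.0 and had 3050 CPM or less. Among A226Y mice the order was mixed: A226Y 7 at -26.5 had 9842 CPM, A226Y 32 at -24.6 had 6651 CPM and A226Y 5 at -0.38 had 7968 CPM. The labels name no batch, and what this axis stands for was not tested.

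Among all tested genes, those whose genotype-centred levels were most like the 9 genes on average were *Ddhd2* (mean r = 0.50 over 18 mice), *Abhd6* (0.49), *Amigo2* (0.47), *Acot2* (0.47) and *Twnk* (0.46). *Ddhd2* and *Abhd6* encode lipid hydrolases, *Acot2* the mitochondrial counterpart of *Acot1* and *Twnk* the mitochondrial DNA helicase. Without A226Y 29 and WT 33 these means were 0.52, 0.48, 0.46, 0.43 and 0.41. Taken gene by gene, the closest was *Hsdl2* for *Acot1* (r = 0.96), *Abcb4*, the phosphatidylcholine pump of the bile canaliculus, for *Cyp4a14* (0.94), *Agpat3* for *Cyp4a10* (0.94), and *Cd36*, the fatty acid translocase, for *Vnn1* (0.93). For *Angptl4* it was *Mon2* (0.85), for *Ppara* *Zscan26* (0.85), for *Cyp4a31* *Ccne1* (0.83), for *Pdk4* *Gata6* (0.83) and for *Fgf21* *Tor1b* (0.72). Without A226Y 29 and WT 33 the r of *Agpat3* was 0.74, and the others lay between 0.73 (*Tor1b*) and 0.89 (*Cd36* and *Hsdl2*). These r are the highest of 13353 genes and carry no test.

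Other genes of the pathway were taken from lists of receptor partners, hydroxylases, thioesterases, oxidation, ketogenesis, uptake, lipid droplet and further targets. Of 105 tested genes 11 rose and 9 fell in A226Y, beside 7.27% of all tested genes called higher and 14.3% called in either direction, and their median log2 fold change was -0.03, beside -0.0044 for all genes. The genes of these lists did not move in a common direction. Without A226Y 29 and WT 33 13 rose and 12 fell, and with surrogate variables none passed in edgeR, with 12 higher and 6 lower at an unadjusted p under 0.05.

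Among the 16 receptor partners and coregulators 4 rose and 1 fell, beside 7.27% of all tested genes called higher and 7.03% called lower. With surrogate variables none of the 16 passed in edgeR. *Ppargc1a*, the coactivator PGC-1alpha, was at 22.2 ± 5.65 CPM (SD, n = 10) among A226Y mice and 13.3 ± 3.27 CPM (SD, n = 8) among WT mice, a log2 fold change of 0.74 (SE 0.16, edgeR adjusted p = 0.00539). *Ncoa2*, another coactivator of nuclear receptors, rose by 0.22 on the log2 scale (SE 0.05, edgeR adjusted p = 0.00866). *Hdac3*, the deacetylase of the nuclear receptor corepressor complex, fell by 0.20 on the log2 scale (SE 0.05, edgeR adjusted p = 0.0150). With surrogate variables the log2 fold change of *Ppargc1a* was 0.19 and that of *Hdac3* was -0.11. With all mice the related receptor genes *Ppard* and *Pparg* did not pass in edgeR, DESeq2 or limma-voom, nor was either at an unadjusted p under 0.05 in these fits, and 1 of them was lower at that unadjusted level in edgeR without A226Y 29 and WT 33.

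Of the fatty acid oxidation targets the direction was mixed. Among the 12 peroxisomal genes none rose in edgeR, DESeq2 or limma-voom, and none was higher at an unadjusted p under 0.05 in edgeR (1 was with surrogate variables). *Decr2*, a dienoyl-CoA reductase, fell by 0.41 on the log2 scale (edgeR adjusted p = 0.0258). Of 18 mitochondrial oxidation genes 3 rose and 1 fell, where 7.27% of all tested genes were called higher and 7.03% lower. *Cpt1b*, the muscle form of carnitine palmitoyltransferase 1, had a log2 fold change of 0.89 (SE 0.24, edgeR adjusted p = 0.0192) at 6.54 against 3.52 CPM, the carnitine transporter *Slc22a5* one of 0.28 (edgeR adjusted p = 0.0455, and 0.0815 without A226Y 29 and WT 33) and *Hadh* one of -0.39 (edgeR adjusted p = 0.0450). Of 5 ketogenesis genes 1 rose, *Slc16a1*, a transporter of lactate and ketone bodies, with a log2 fold change of 0.55 (SE 0.09, edgeR adjusted p = 0.00196) and 9 of 10 A226Y mice above all WT mice. The other 4 had log2 fold changes between -0.39 and 0.09, so the median of the list was -0.22. *Bdh1*, the ketone body dehydrogenase, was at -0.39 (edgeR adjusted p = 0.118) and was called lower without A226Y 29 and WT 33 (-0.36, edgeR adjusted p = 0.0183), when 3 of the 5 genes were lower at an unadjusted p under 0.05. With surrogate variables the log2 fold changes of *Decr2*, *Cpt1b* and *Hadh* were -0.18, 0.30 and -0.18.

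Among the pathway lists, the genes of lipid droplets held the widest changes. Of these 11 genes 3 were higher and 1 lower, beside 7.27% of all tested genes called higher and 7.03% called lower. *Cidec*, which encodes a protein that enlarges droplets, was at 15.0 ± 10.7 CPM (SD, n = 10) among A226Y mice and 4.71 ± 2.64 CPM (SD, n = 8) among WT mice (log2 fold change 1.67, SE 0.40, edgeR adjusted p = 0.0109). *Pnpla2*, the triglyceride lipase ATGL, rose by 0.54 on the log2 scale (SE 0.12, edgeR adjusted p = 0.00654), with 8 of 10 A226Y mice above all WT mice. *Fitm1*, a droplet formation protein, fell by 1.96 on the log2 scale (SE 0.36, edgeR adjusted p = 0.00282). Of 13 uptake and activation genes *Acsl3*, an acyl-CoA synthetase, fell by 0.53 on the log2 scale (edgeR adjusted p = 0.0261), and of 18 further targets *Fads1*, the delta-5 desaturase, fell by 0.60 on the log2 scale (edgeR adjusted p = 0.00660) and *Tysnd1*, a peroxisomal protease, by 0.34 on that scale (edgeR adjusted p = 0.0164). *Cyp4f14*, a hydroxylase of the same superfamily, fell by 0.64 on the log2 scale (SE 0.11, edgeR adjusted p = 0.00213), with all 10 A226Y mice below all WT mice. With surrogate variables the log2 fold changes shrank to 0.81 for *Cidec*, -0.75 for *Fitm1*, 0.20 for *Pnpla2*, -0.30 for *Fads1* and -0.40 for *Cyp4f14*. With all mice none of the 6 other acyl-CoA thioesterases passed in edgeR, DESeq2 or limma-voom or was at an unadjusted p under 0.05 in these fits, and 1 was higher at that unadjusted level in edgeR without A226Y 29 and WT 33, and 1 with scaling by library size alone.

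Relatives of the members and partners of their products did not follow a common direction. With all mice none of the 5 other pyruvate dehydrogenase kinase and phosphatase genes passed in edgeR (2 were lower at an unadjusted p under 0.05), while DESeq2 called 1 lower, as did edgeR without A226Y 29 and WT 33. *Angptl6*, a relative of *Angptl4*, fell by 0.52 on the log2 scale (SE 0.08, edgeR adjusted p = 0.000932), with all 10 A226Y mice below all WT mice. Of the genes through which FGF21 acts on cells, the co-receptor *Klb* rose by 0.46 on the log2 scale (SE 0.12, edgeR adjusted p = 0.0162) and *Fgfr2* by 0.38 on that scale (edgeR adjusted p = 0.0476, and 0.0783 without A226Y 29 and WT 33), while *Fgfr3* fell by 0.51 on the log2 scale (SE 0.07, edgeR adjusted p = 0.000766). Those for *Angptl6* and *Fgfr3* also passed with surrogate variables as covariates (edgeR adjusted p = 0.0419 and 0.0343), while the log2 fold change of *Klb* was then 0.26.

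Several of these calls lay close to the threshold. When each of the 18 mice was left out in turn, the call of *Fgfr2* was kept in 5 of 18 fits, that of *Hadh* in 7, that of *Slc22a5* in 8 and that of *Decr2* in 14, and their direction was kept in all 18.

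**Figure D5:**
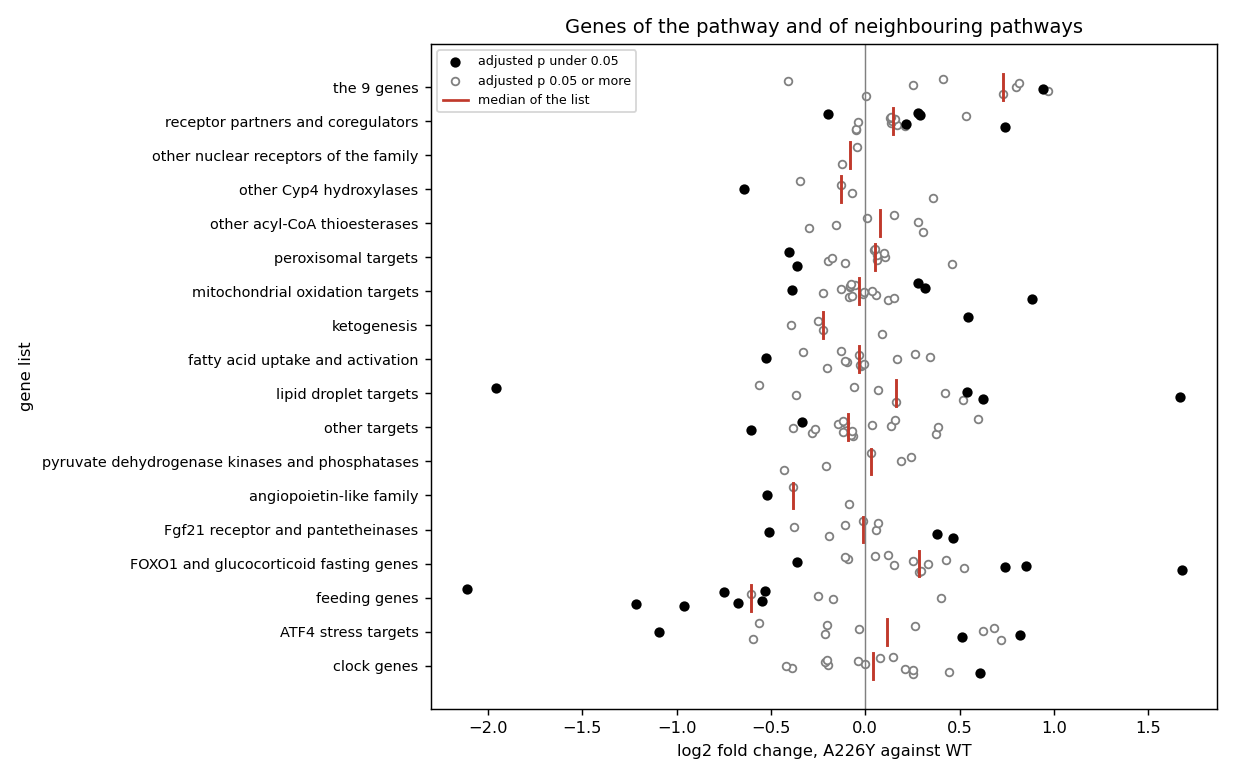
Log2 fold change of each tested gene, A226Y against WT, for the 9 genes, the pathway lists and neighbouring pathways. Filled points have an edgeR adjusted p under 0.05 and red bars mark list medians, which are 0.73 for the 9 genes (0.27 with surrogate variables, not drawn) and -0.61 for the feeding genes.

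Further fasting and feeding genes were compared to place these values. Of 15 genes raised in fasting by FOXO1 or glucocorticoids 3 rose and 1 fell, beside 7.27% of all tested genes called higher and 7.03% called lower, and the list had a median of 0.28 on the log2 fold change scale. The largest was that of *Igfbp1*, an insulin-repressed binding protein, at 1.68 (SE 0.49, edgeR adjusted p = 0.0283), with 165 ± 192 CPM (SD, n = 10) among A226Y mice and 51.5 ± 25.7 CPM (SD, n = 8) among WT mice. Without A226Y 29 the log2 fold change of *Igfbp1* was 1.05, and its call was lost without WT 13, WT 14 or WT 24 (edgeR adjusted p up to 0.0598). *Cited2* fell by 0.36 on the log2 scale (edgeR adjusted p = 0.0417). With surrogate variables no gene of this list passed in edgeR or was at an unadjusted p under 0.05, and its median was -0.03. The call of *Cited2* was kept in 8 of the 18 fits without 1 mouse. Of 11 genes raised in feeding 7 fell and none rose in edgeR (1 higher at an unadjusted p under 0.05, called by DESeq2, and 1 called higher in edgeR with scaling by library size alone), beside the same shares of all tested genes, with a median log2 fold change of -0.61. *Thrsp*, a lipogenic gene, was at 48.1 ± 25.1 CPM (SD, n = 10) against 208 ± 121 CPM (SD, n = 8), a log2 fold change of -2.11 (SE 0.39, edgeR adjusted p = 0.00285), and *Mlxipl*, the carbohydrate response factor ChREBP, fell by 0.53 on the log2 scale (edgeR adjusted p = 0.00389). With surrogate variables no feeding gene passed in edgeR, and 3 were lower at an unadjusted p under 0.05. The log2 fold change of *Thrsp* was then -0.73, that of *Igfbp1* 0.42 and that of *Cited2* -0.049.

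*Fgf21* is also a target of ATF4, the stress transcription factor, and several targets of PPAR-alpha cycle with the time of day, so lists for these were read as well. Of 12 ATF4 targets 2 rose and 1 fell: *Atf5* at a log2 fold change of 0.51 (edgeR adjusted p = 0.0402), *Trib3* at 0.82 (edgeR adjusted p = 0.0476) and *Chac1*, a glutathione-degrading enzyme, at a log2 fold change of -1.10 (SE 0.31, edgeR adjusted p = 0.0234). Leaving out each mouse in turn kept the call of *Trib3* in 5 of 18 fits, that of *Atf5* in 8 and that of *Chac1* in 16. Of 14 clock genes 1 rose, *Clock*, at a log2 fold change of 0.61 (SE 0.09, edgeR adjusted p = 0.000932), with all 10 A226Y mice above all WT mice. These counts stand beside 7.27% of all tested genes called higher and 14.3% in either direction. With surrogate variables no gene of either list passed in edgeR (*Clock* had an adjusted p of 0.0904), and at an unadjusted p under 0.05 there were 2 ATF4 targets and 1 clock gene in each direction. The hour at which livers were taken is not given in the sources used here.

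Markers of other cell types were read because *Angptl4*, *Pdk4*, *Cidec* and *Cpt1b* are also made in fat or muscle. Adipocyte markers summed to between 0.91 and 4.78 CPM in A226Y and between 1.48 and 6.15 CPM in WT, and 1 of the 6 was abundant enough to be tested, *Adrb3*, which fell by 1.15 on the log2 scale (edgeR adjusted p = 0.00791). Striated muscle markers summed to at most 12.7 CPM, in A226Y 23, and to at most 0.93 CPM in WT. Kupffer cell markers summed to a median of 295 CPM in A226Y (215 to 900, highest in A226Y 29) and 479 CPM in WT (323 to 666, exact permutation p = 0.0537), and stellate cell markers to a median of 333 against 296 CPM (exact permutation p = 0.0301). Sums for leukocyte, endothelial, bile duct, pancreas and red blood cell markers gave exact permutation p between 0.187 and 0.788. Single markers that passed in edgeR were *Clec4f* of Kupffer cells (log2 fold change -0.65, adjusted p = 0.0261), *Col1a1* of stellate cells (-0.77, adjusted p = 0.0162) and *Serpina1c* of hepatocytes (-0.42, adjusted p = 0.0164), all lower in A226Y. The part of these cells in the values of the 9 genes was not tested.

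RefSeq promoter sequence on GRCm38.p6 was at hand for 4 of the 9 genes (*Ppara*, *Fgf21*, *Pdk4* and *Acot1*). The 250 bases before the start are shown for *Fgf21*, the hormone gene, and for *Acot1*, the gene that varied with *Cyp4a14*, at chr7:45615491-45615740 (minus strand) and chr12:84009252-84009501 (plus strand).
Fgf21: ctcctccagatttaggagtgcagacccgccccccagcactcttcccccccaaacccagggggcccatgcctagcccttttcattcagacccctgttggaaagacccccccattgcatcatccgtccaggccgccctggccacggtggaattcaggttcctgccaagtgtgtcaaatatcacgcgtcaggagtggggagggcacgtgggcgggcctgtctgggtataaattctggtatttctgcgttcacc
Acot1: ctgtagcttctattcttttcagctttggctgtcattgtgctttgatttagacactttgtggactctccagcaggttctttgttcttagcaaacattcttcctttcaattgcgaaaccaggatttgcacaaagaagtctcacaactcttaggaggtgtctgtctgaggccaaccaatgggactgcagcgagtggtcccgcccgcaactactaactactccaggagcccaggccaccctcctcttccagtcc

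Nuclear receptors of this class bind repeats of AGGTCA with a spacer of 1 base (DR1, AGGTCANAGGTCA). In windows from 250 bases before to 50 bases after the start, searched on either strand, none of the 4 promoters held AGGTCA, DR1 or the relaxed form AGGNCANAGGNCA, so no base is in capitals. Of 32851 mouse promoters of this length 16.3% held AGGTCA, 0.04% DR1 and 0.381% the relaxed form, and the 3 motifs overlap. Sequence farther from the start was not searched.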

How the data were processed

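Liver RNA of 10 A226Y and 8 WT mice was sequenced, 1 library per mouse. The authors deposited whole-number read counts per Ensembl gene, not normalized. The methods name RSEM, and the submitters' processing notes name bcl2fastq, fastp, STAR, featureCounts, MultiQC and GRCm38, so how reads shared by paralogs were assigned is not settled. The 13353 genes that reached 10 counts in 50% or more of either genotype's mice were tested with edgeR 4.0.16 in R 4.3.3 (TMM, quasi-likelihood, no covariates, Benjamini-Hochberg adjustment over all of them). Exact permutation tests were two-sided, used log2 CPM (prior count 2) and all 43758 divisions of the mice, and are unadjusted. Correlations used 100000 permutations within genotypes, adjusted over 36 pairs. Depth makes counting error small beside the spread between mice for all 9 genes. Alternatives were other scalings, filters, length and GC offsets, DESeq2 1.42.0, limma-voom 3.58.1, surrogate variables (sva 3.50.0) and leaving out mice. Procedures were tested on simulated data. The 9 genes and all lists were chosen with earlier results of these data known. Of each list at most the 2 genes with the smallest p in each direction are named among those with an adjusted p under 0.05, and *Cyp4a32*, *Bdh1*, *Ppard* and *Pparg* and the single cell type markers were named after their values were seen. A result for 1 gene of the pathway lists is not reported here.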

Additional observations from a re-analysis of the deposited data

Results flagged for a closer look

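In 20 groups of mice, those of the 9 genes and *Rps2* in either genotype, the gap between the most extreme mouse and its nearest neighbour was compared with the range of the group (Dixon's critical values, which chance passes in about 1 of 20 groups). 2 were past it. *Fgf21* in WT 6 was at 9.19 CPM, far above the other WT mice, and *Angptl4* in WT 14 was at 120.2 CPM, below the other WT mice. WT 6 was also the highest WT mouse for *Cyp4a10*, *Cyp4a14*, *Cyp4a31* and *Acot1*.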

How the results depend on the processing

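The cause of the differences between settings was not tested. *Cyp4a31* remained higher and called under 11 of 12 alternatives that did not leave out a single mouse, the exception being surrogate variables (log2 fold change 0.27, edgeR adjusted p = 0.575). Of the 9 genes, 1 was called by edgeR with all mice, 4 by DESeq2, 2 by limma-voom, 4 without A226Y 29 and WT 33, none with surrogate variables and between 0 and 4 without 1 mouse (0 without WT 14, WT 21 or WT 24, where 5 or 6 were at an unadjusted p under 0.05 in edgeR, and 4 without A226Y 29 or WT 6). By the exact permutation test 4 were at p under 0.05, between 2 (without WT 33) and 6 without 1 mouse. Over all genes 1910 were called, 50 with surrogate variables and between 1255 (without WT 14) and 2560 without 1 mouse. Scaling by library size alone called 2059 genes, of which 67.9% were higher in A226Y, against 50.8% with TMM. Pathway genes called numbered 20, between 12 (without WT 14) and 24 without 1 mouse, and 0 with surrogate variables. The sign of *Ppara* reversed at -0.0034 with upper quartile scaling and -0.061 with surrogate variables, and ranged from -0.037 to 0.049 without 1 mouse, and that of *Vnn1* reversed to 0.25 with surrogate variables. No paired analysis was possible because the genotypes share no replicate number. Depth is no limit at these levels, *Fgf21* having the fewest reads, at least 100 per mouse.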
